A study of Saccharomyces cerevisiae with 3 samples.

Results

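The proteins of the large ribosomal subunit are encoded in yeast by 81 nuclear genes, taken here as every gene whose symbol in the R64 annotation is RPL with a number and an optional A or B, together with RPP0, RPP1A, RPP1B, RPP2A and RPP2B of the stalk. Of these, 79 are among the 6218 genes on the arrays, and RPL29 and RPL36B have no spot with their ORF. The measured genes comprise 35 A copies, 34 B copies and 10 genes without a copy letter, and 34 pairs have both copies measured. The cells were diploids of the SK1 background deleted for SUM1 (strain JPY214), a gene whose product represses mid-sporulation genes. They were grown in YPD and then in YPA, spent 6 hours in SPM, a sporulation medium with acetate and raffinose, after which some of the cells were transferred to YPD, a rich glucose medium, for 20 or 40 minutes. One array was hybridized for each of the 3 samples, with no replicate culture. The reference on every array was RNA of wild-type diploid SK1 cells (NKY1551) growing in YPA, where acetate in place of glucose feeds the cells.

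Ribosomal protein genes are among the most highly transcribed genes of a growing yeast cell, and their expression follows the supply of nutrients closely, through the TOR and PKA pathways. Whole-genome duplication left most of these proteins with a pair of near-identical genes, whose products are thought to be largely interchangeable. The large subunit forms peptide bonds and guides the new chain through its exit tunnel, and it is assembled in the nucleolus and exported before it joins the small subunit.

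A value here is the log2 ratio of the Cy5 signal (Δsum1 sample) to the Cy3 signal (reference), centred on the median gene of its array, so that -1 means a 2-fold lower level than in the reference relative to that median gene. The channel labels and the scanner headers put the Δsum1 sample in Cy5, while the deposited labeling protocol assigns the dyes in reverse. The former, also stated in the supplement of the study, was followed here. Each gene had 2 adjacent spots, and ± gives the SD between them (n = 2 spots), which covers spot noise only. A gene is called higher or lower at 1.5-fold, the limit by which the study sorted sporulation genes into those repressed and those induced after transfer to YPD. With this direction SUM1, the deleted gene, lay below the reference on all arrays, at -1.76, -1.37 and -1.64. Of all genes 31.0%, 36.4% and 34.7% exceeded the reference at least 1.5-fold at 6 hours, 20 minutes and 40 minutes. All 12 mid-sporulation genes of a list did so on each array, with a lowest value of 2.59. Among 15 haploid and mating genes, listed as markers of another cell type, 10, 9 and 10 did so on the 3 arrays. Their values spanned 0.00 to 4.14 at 6 hours, -0.31 to 3.93 at 20 minutes and -0.13 to 4.75 at 40 minutes, and their part in the ribosomal values was not tested.

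The large-subunit genes were low in SPM and high in YPD. Their median log2 ratio was -2.26 at 6 hours in SPM, 4.78-fold below the reference, then 1.47 after 20 minutes and 2.18 after 40 minutes in YPD, 2.77-fold and 4.53-fold above it. At 6 hours 73 of 79 genes were at least 1.5-fold lower than the reference, beside 28.6% of all genes. The 6 others were RPL4A, RPL8B, RPL15A, RPL31B, RPL40B and RPL43B. After 20 minutes 72 genes were at least 1.5-fold higher than the reference, beside 36.4% of all genes, and after 40 minutes 76 were, beside 34.7%. In all, 74 genes lay below the reference in SPM and above it at both times in YPD. Of all 6218 genes, 3055 lay below it in SPM, and 3116 and 3017 lay above it at 20 and 40 minutes. How many of all genes did all of this was not counted. RNA of fewer cells and less RNA per cell cannot be told apart in such extracts.

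**Figure D1:**
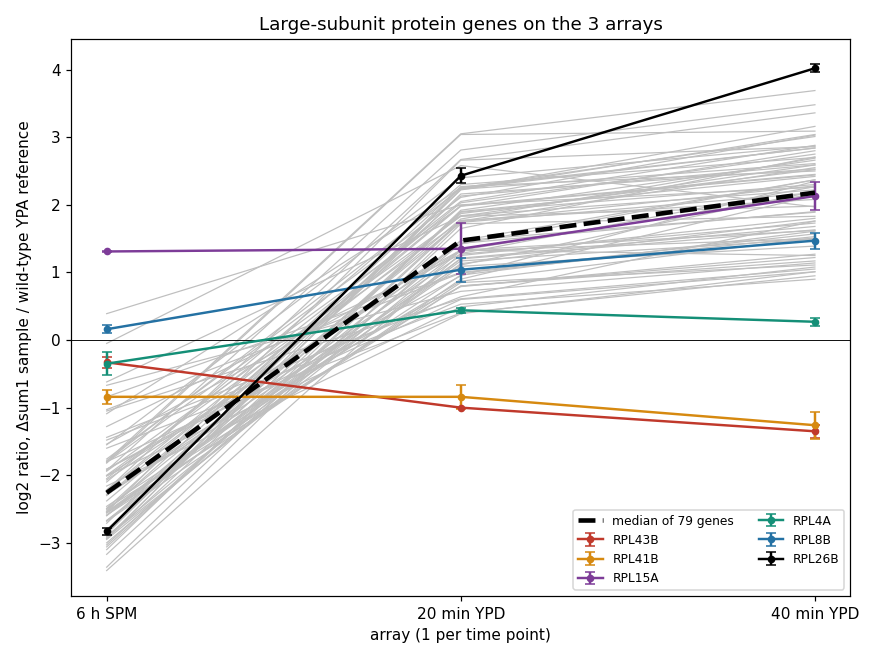
Log2 ratio of the Δsum1 sample to the wild-type YPA reference (y axis) for 79 large-subunit protein genes on the 3 arrays (x axis). Grey lines are single genes, the dashed line is their median (-2.26, 1.47 and 2.18), and 6 genes are coloured, with bars for the SD of 2 spots; RPL43B and RPL41B stayed below 0 on every array.

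Between SPM and YPD the median change of the log2 ratio was 3.80 after 20 minutes (13.9-fold) and 4.45 after 40 minutes (21.9-fold), while the median over all genes was -0.25 and -0.32. For the large-subunit genes the 2 spots of a gene gave a pooled SD of 0.19 and 0.20 in these changes. At least 1.5-fold higher in YPD were 76 of 79 genes at 20 minutes, beside 26.2% of all genes, and 77 at 40 minutes, beside 26.9%. The 76 genes higher at both times stand beside 22.7% of all genes. At least 16-fold higher were 36 genes at 20 minutes, beside 2.65% of all genes, and 51 at 40 minutes, beside 2.96%. Of the 100 genes with the most positive change at 40 minutes, 32 encode large-subunit proteins. A single gene, RPL43B, was at least 1.5-fold lower at each time, beside 38.9% and 42.1% of all genes.

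Most of the measured change in the log2 ratio was present at 20 minutes. Between 20 and 40 minutes the median change of the large-subunit genes was a further 0.47 on the log2 scale. In this step 74 of 79 were above 0, beside 2742 of all 6218 genes. The step is relative to the median gene of each array. The median Cy5 signal of the large-subunit spots was 37648 at 20 minutes and 38738 at 40 minutes, that of all gene spots 2748 and 1616. After loess normalization the median changes from SPM were 3.23 and 3.50. At least 1.5-fold higher at 40 than at 20 minutes were 32 genes, beside 7.88% of all genes. RPL40B was the only one at least 1.5-fold lower in this step, beside 12.2% of all genes.

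The stalk proteins recruit and activate the translation factors that drive elongation. RPP0, the scaffold of the stalk, went from -2.01 ± 0.00 in SPM to 0.49 ± 0.13 and 1.08 ± 0.06 at 20 and 40 minutes in YPD. Of the acidic proteins that bind it, RPP1A measured -2.29 ± 0.07, 1.25 ± 0.01 and 1.80 ± 0.07, and RPP1B -2.87 ± 0.11, 2.26 ± 0.15 and 2.84 ± 0.04. RPP2B measured -2.54 ± 0.20, 1.20 ± 0.09 and 1.63 ± 0.12. RPP2A stood closer to the reference in SPM, at -0.67 ± 0.30, and measured 0.72 ± 0.11 and 1.14 ± 0.03 in YPD. All 5 were thus below the reference in SPM and above it in YPD, and at 40 minutes the changes ran from 3.50-fold for RPP2A to 52.1-fold for RPP1B. At the base of the stalk, RPL12A measured -2.55 ± 0.10, 1.17 ± 0.08 and 1.49 ± 0.02, and RPL12B -2.91 ± 0.21, 1.21 ± 0.17 and 1.68 ± 0.04.

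RPL5 and RPL11 carry the 5S rRNA into the subunit. RPL5 measured -2.55 ± 0.06 in SPM and 1.09 ± 0.05 and 1.39 ± 0.07 in YPD. RPL11B had the lower ratio of the RPL11 copies in SPM, -3.36 ± 0.00 against -1.03 ± 0.11 for RPL11A. In YPD the order turned, with 1.72 ± 0.04 for RPL11B and 0.99 ± 0.00 for RPL11A at 20 minutes, and 1.83 ± 0.07 and 1.53 ± 0.09 at 40 minutes. RPL11B therefore changed 36.6-fold by 40 minutes and RPL11A 5.86-fold.

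The 4 genes for proteins near the peptidyl transferase center, RPL2A, RPL2B, RPL3 and RPL10, had median changes of 2.88 and 3.25 at the 2 times in YPD. All 4 had a Cy3 intensity above 30000 on at least 1 array, and the 27 such large-subunit genes had medians of 3.12 and 3.26. The copies of the L1 stalk protein, which moves spent tRNA out of the ribosome, changed by 4.82 ± 0.12 (RPL1A) and 3.17 ± 0.03 (RPL1B) at 40 minutes. The 14 genes for proteins at the peptide exit tunnel had medians of 3.91 and 4.50. RPL40A and RPL40B, made as fusions to ubiquitin, were closer to the reference in SPM than most, at -0.84 ± 0.00 and -0.05 ± 0.06. RPL40A measured 1.00 ± 0.21 and 1.57 ± 0.03 in YPD, whereas RPL40B was higher at 20 minutes (2.58 ± 0.09) than at 40 minutes (1.97 ± 0.06). Among 4 genes listed here for bridges to the small subunit, RPL24A, RPL24B and RPL41A were at least 1.5-fold higher in YPD at both times and RPL41B was not.

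All 10 genes without a copy letter were below the reference in SPM and above it in YPD, as were 74 of all 79 large-subunit genes. The changes of these 10 at 40 minutes ran from 2.38 for RPL3 to 5.75 for RPL30. RPL3, which lies closest to the site of peptide bond formation, measured -1.48 ± 0.06, 0.53 ± 0.05 and 0.90 ± 0.05. RPL30, whose protein represses the splicing of its own transcript, measured -2.71 ± 0.10, 2.22 ± 0.06 and 3.04 ± 0.07. RPL10, one of the last proteins to join the subunit, changed by 2.40 and 2.81.

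The largest mean changes over both times belonged to RPL26B, RPL27A, RPP1B and RPL16B. RPL26B, a tunnel exit protein, measured -2.83 ± 0.05, 2.43 ± 0.11 and 4.02 ± 0.06 on the 3 arrays, a 116.0-fold change by 40 minutes. The reference signal of this probe was lower on the last array, 2499 against 13296 at 6 hours and 9975 at 20 minutes, although the reference RNA was the same, and from Cy5 alone the change was 5.20 at 20 minutes and 5.16 at 40 minutes. The order was not kept from Cy5 alone, where RPL27A changed by 5.33 and 6.07, RPL30 by 5.31 and 5.66, RPP1B by 5.04 and 5.80 and RPL16B by 4.69 and 5.44. RPL27A measured -2.93 ± 0.01, 2.23 ± 0.01 and 3.16 ± 0.07. RPL16B measured -3.10 ± 0.06, 1.92 ± 0.03 and 2.66 ± 0.01. All 4 lay below the lower quartile of the large-subunit genes in SPM (-2.68) and above their upper quartile at 40 minutes (2.64). These 4 were chosen for their change between SPM and YPD, so such positions are in part set by that choice. RPL22B was the only gene with spots under the signal floor, with 2 spots in SPM, so it was at least 26.8-fold higher at 20 minutes and at least 42.5-fold higher at 40 minutes. That floor, 656 for Cy5 in SPM, was lower than the mean of the buffer spots, which hold no gene (1650). The Cy5 signals of RPL27A (1508), RPL30 (1269) and RPL31B (1605) in SPM lay between the 2 limits. With the buffer mean as floor RPL27A changed by 4.45 and 5.27.

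The other end was held by RPL43B, RPL41B, RPL15A and RPL4A. RPL43B measured -0.33 ± 0.08 in SPM, -1.0 ± 0.00 at 20 minutes and -1.35 ± 0.10 at 40 minutes, so that it was lower in YPD than in SPM by 1.58-fold and 2.02-fold. RPL41B, which encodes one of the shortest yeast proteins, measured -0.84 ± 0.10, -0.84 ± 0.18 and -1.26 ± 0.20. Both stayed below the reference throughout. RPL15A was the only large-subunit gene at least 1.5-fold above the reference in SPM, at 1.31 ± 0.01, beside 31.0% of all genes, and measured 1.35 ± 0.38 and 2.13 ± 0.21 in YPD. Its Cy3 signals in SPM and at 40 minutes, 1861 and 1481, were under the means of the buffer spots there, 2232 and 1537. With the buffer mean as floor its changes at 20 and 40 minutes were -0.3 and 0.18. RPL4A, whose protein reaches into the exit tunnel, measured -0.35 ± 0.17, 0.44 ± 0.04 and 0.27 ± 0.06. Its probe was bright in both channels, with Cy3 signals of 37013 to 49457 and Cy5 signals of 31988 to 39032, and after loess normalization its change at 40 minutes turned from 0.62 to -0.67. On the 40-minute array its reference signal was higher than at 6 hours by 0.69 on the log2 scale, and from Cy5 alone the change was 1.54. One of its spots there had a Cy3 intensity of 62943, above the 60000 taken as saturated, and without that spot the change was 0.66.

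The A and B copies were often unlike. A pair is called apart where the copies differed by at least 1.5-fold and the 2 spots of one copy did not overlap those of the other. In SPM 16 of 34 pairs were apart, 5 with A and 11 with B higher relative to the reference. This stands beside 41.4% of the 58 pairs of both ribosomal subunits, which include these 34, and 8 of the 24 small-subunit pairs. In YPD 15 pairs were apart at 20 minutes (37.9% of the 58) and 17 at 40 minutes (39.7%). In the change from SPM to YPD 21 pairs were apart at 20 minutes (53.4%) and 18 at 40 minutes (51.7%), and 16 of these were apart at both times, 8 with the larger change in A and 8 in B. The median absolute difference between copies was 0.54 in SPM, 0.57 and 0.58 in YPD, and 0.79 and 0.72 in the change. The 5 pairs RPL2, RPL12, RPL24, RPL34 and RPL35 were apart in none of these measures nor in the step from 20 to 40 minutes, in which 8 pairs were apart (17.2%). PCR product probes of near-identical copies can bind RNA of both genes, and the part of this in the values was not tested.

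**Figure D2:**
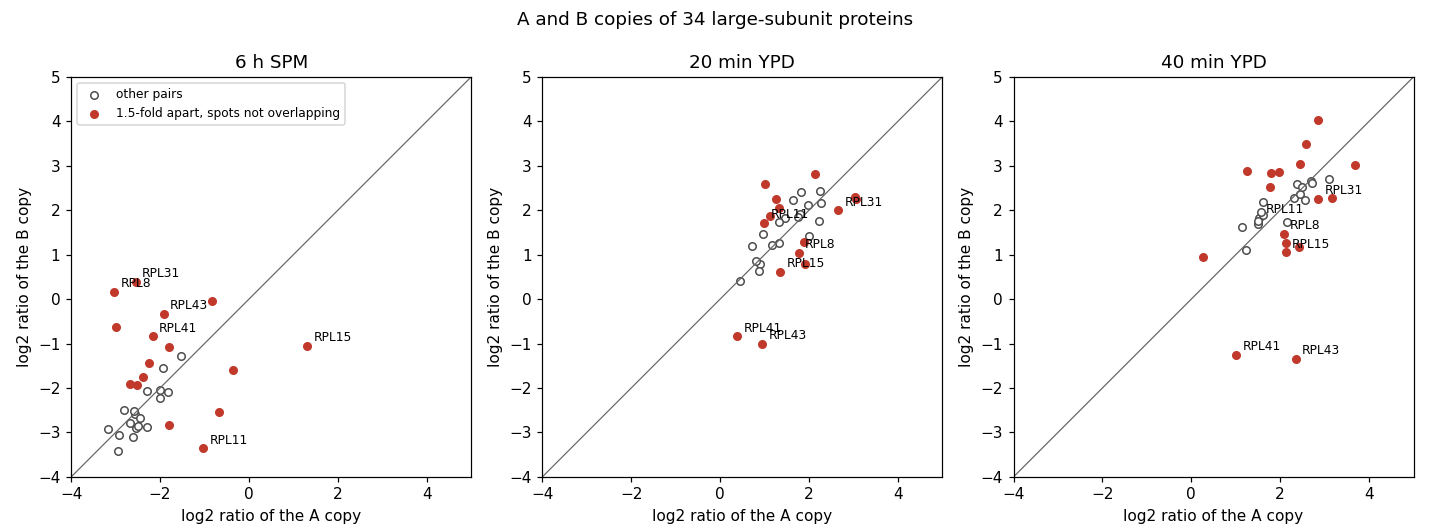
Log2 ratio of the B copy (y axis) against that of the A copy (x axis) for 34 large-subunit pairs on each array, with the line of equality. Filled points are pairs that were at least 1.5-fold apart without overlap of their spots (16, 15 and 17 pairs); RPL8 and RPL31 lay far from the line in SPM and RPL43 and RPL41 in YPD.

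The 4 pairs with the largest difference in mean change were RPL43, RPL8, RPL31 and RPL41, all with the larger change in A. RPL43A measured -1.91 ± 0.20 in SPM and 0.95 ± 0.02 and 2.35 ± 0.24 in YPD, against -0.33, -1.0 and -1.35 for RPL43B. The copies thus moved in opposite directions, and at 40 minutes their changes differed by 5.27 on the log2 scale. This difference was 5.34 from Cy5 alone, 4.85 with the buffer mean as floor and 4.19 after loess normalization. The Cy5 signal of RPL43B at 40 minutes, 923, was under the buffer mean of 1236. RPL41A measured -2.16 ± 0.03, 0.39 ± 0.13 and 1.01 ± 0.02, so that its change exceeded that of RPL41B by 2.54 and 3.59. Both pairs were further apart at 40 minutes in YPD than in SPM.

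RPL8 and RPL31 were furthest apart in SPM. RPL31B stood at 0.39 ± 0.04 in SPM and RPL31A at -2.54 ± 0.08, a difference of -2.93 on the log2 scale, or -2.18 with the buffer mean as floor. Both signals of RPL31B in SPM, 1293 in Cy3 and 1605 in Cy5, were under the buffer means of 2232 and 1650. Its place relative to the reference there is therefore uncertain. At 40 minutes its Cy3 signal of 869 was again under the buffer mean, 1537. In YPD RPL31A measured 2.66 ± 0.02 and 2.86 ± 0.07 and RPL31B 2.00 ± 0.10 and 2.26 ± 0.44, which left differences of 0.66 and 0.60. The changes of the copies at 20 minutes differed by 3.59, and by 2.58 from Cy5 alone. RPL8B, which encodes a protein needed in early assembly, measured 0.16 ± 0.06, 1.04 ± 0.18 and 1.47 ± 0.12. RPL8A measured -3.03 ± 1.19, 1.77 ± 0.11 and 2.08 ± 0.03, and its spots disagreed in SPM, at -2.18 and -3.87. With the first spot alone the copies of RPL8 differed in SPM by -2.38 in place of -3.19, and with the deposited values by -4.03. When spots marked for a low signal-to-noise ratio were left out, RPL8A had no value in SPM and the pair dropped out.

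The larger change was in A, at both times, also in RPL1, RPL6, RPL13 and RPL33. RPL33A, for example, measured -1.79 ± 0.06, 3.05 ± 0.01 and 3.69 ± 0.01, and RPL33B -1.09 ± 0.03, 2.25 ± 0.10 and 3.01 ± 0.06. RPL13A and RPL13B started close together in SPM, at -2.82 ± 0.02 and -2.49 ± 0.24, and ended at 2.42 ± 0.09 and 1.17 ± 0.02.

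The larger change was in B in RPL4, RPL11, RPL14, RPL15, RPL17, RPL26, RPP1 and RPP2. RPL15A, above the reference in SPM but with a Cy3 signal under the buffer mean there, stood against RPL15B with -1.05 ± 0.28, 0.61 ± 0.07 and 1.05 ± 0.04. RPL4B measured -1.60 ± 0.10, 0.40 ± 0.10 and 0.95 ± 0.09, and so was lower than RPL4A in SPM, while the RPL4A value at 40 minutes includes its saturated spot. RPL14A and RPL14B were alike in SPM, at -2.01 ± 0.06 and -2.05 ± 0.02, but at 40 minutes stood at 1.25 ± 0.05 and 2.88 ± 0.15. Part of this gap lay in the reference channel, which moved by 0.39 for RPL14A and -0.67 for RPL14B from SPM to 40 minutes. From Cy5 alone RPL14A changed by 2.97 and 3.88 at the 2 times and RPL14B by 3.46 and 4.49. The copies of RPL22 were apart on each array, with B higher, although in SPM both spots of RPL22B were under the floor and its value there of -1.93 is an upper bound.

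**Figure D3:**
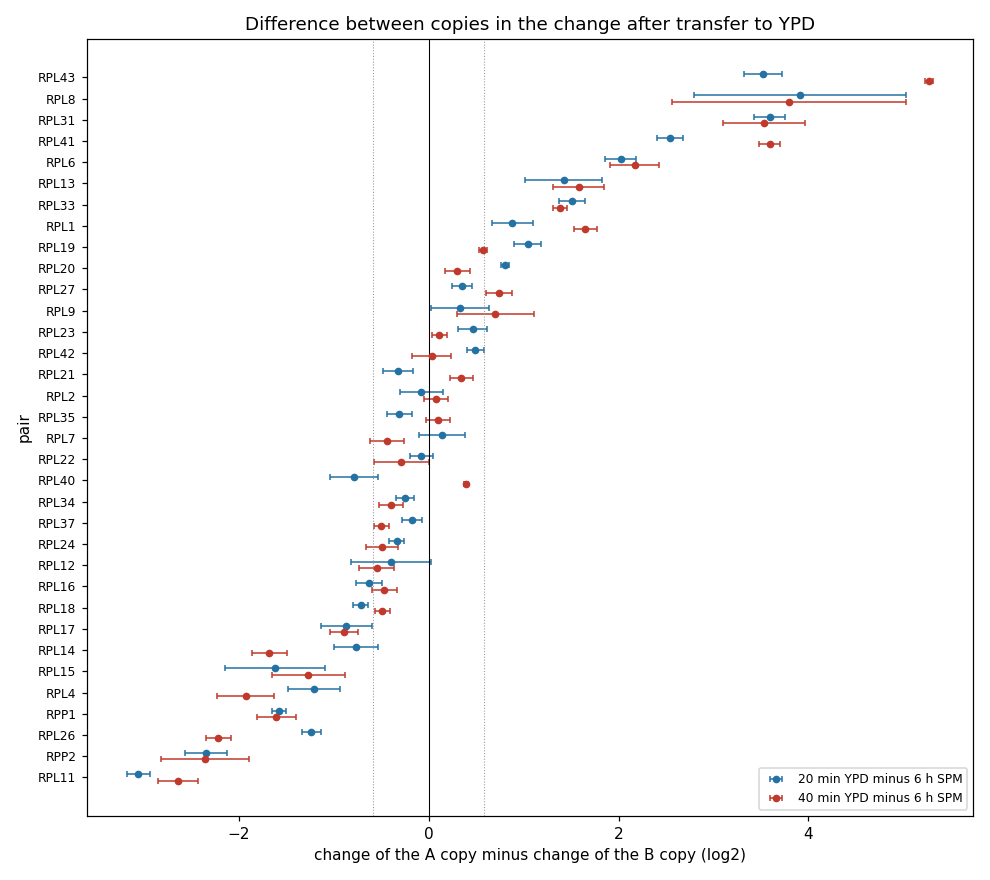
Change of the A copy minus change of the B copy (x axis, log2) for each of 34 pairs (y axis), from SPM to 20 minutes (blue) and to 40 minutes (red) in YPD. Bars are the root of the summed squared SDs of the 2 spots of each copy, dotted lines mark 1.5-fold, and the pairs run from RPL43 at the top (5.27 at 40 minutes) to RPL11 at the bottom (-2.64).

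The copies differed by at least 2-fold in SPM in 10 pairs, RPL4, RPL6, RPL8, RPL11, RPL15, RPL26, RPL31, RPL41, RPL43 and RPP2, beside 24.1% of the 58 pairs of both subunits. Of these pairs, taken for that difference, 2 were still 2-fold apart at 20 minutes and 4 at 40 minutes. RPL6A and RPL6B, for example, stood at -3.00 ± 0.12 and -0.62 ± 0.02 in SPM, and at 2.37 ± 0.13 and 2.59 ± 0.00 after 40 minutes. Over all 34 pairs, 17 were closer at 40 minutes than in SPM. The pairs with the smallest difference in mean change, RPL2 and RPL21, differed by 0.08 (RPL2) and 0.34 (RPL21) at 40 minutes. RPL21A, with values of -3.17 ± 0.09, 1.65 ± 0.00 and 2.71 ± 0.12, and RPL21B, with -2.93 ± 0.08, 2.23 ± 0.05 and 2.61 ± 0.04, changed by 5.88 and 5.54 at 40 minutes. RPL2A went from -2.56 ± 0.11 to 0.80 ± 0.03 and 1.22 ± 0.00, and RPL2B from -2.59 ± 0.18 to 0.85 ± 0.01 and 1.11 ± 0.22.

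The Cy5 signals of most large-subunit genes were close to each other in YPD. Their lower and upper quartiles were 2775 and 6372 in SPM, a 2.30-fold range, but 35337 and 39354 at 20 minutes and 35991 and 42520 at 40 minutes, ranges of 1.11-fold and 1.18-fold. At these times the Cy5 intensity exceeded 30000 for 69 and 70 of 79 genes, a level reached by 6.28% and 4.29% of all gene spots, and the highest were 46009 and 53112. The Cy3 signals kept a spread between quartiles of 1.83-fold, 2.23-fold and 2.27-fold. Across the 79 genes, which share their arrays, the log2 ratio in YPD ran against the reference signal, averaged over the arrays. Spearman's rho was -0.78 at 20 minutes, -0.73 at 40 minutes and -0.03 in SPM, and Pearson's r was -0.49, -0.4 and -0.36 in the same order. The reference signal is also the denominator of the ratio, so with Cy5 signals this close in YPD a negative value there is built in. The 27 genes with a Cy3 intensity above 30000 on at least 1 array had a median change of 3.26 at 40 minutes, and the 52 others 4.86. Whether the scanner still responded in proportion at such intensities was not tested, so the order of the high genes in YPD is less certain than their place above the reference. The same holds for the size of their changes and for the step from 20 to 40 minutes. The large-subunit genes made up 0.919% of the summed Cy5 signal of gene spots in SPM, 6.56% at 20 minutes and 9.72% at 40 minutes, and 3.76%, 3.12% and 3.28% of the Cy3 signal, with 1.27% of the spots.

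**Figure D4:**
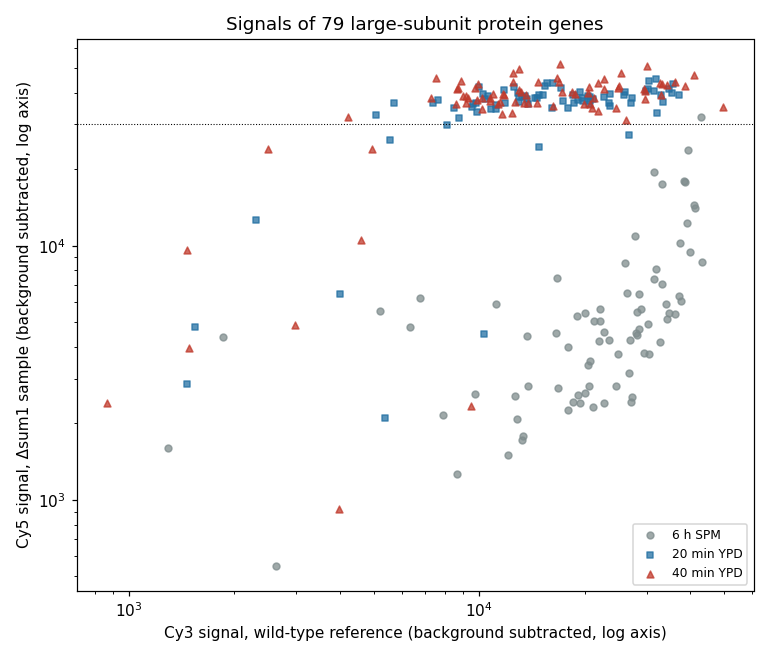
Cy5 signal of the Δsum1 sample (y axis) against Cy3 signal of the reference (x axis) for 79 large-subunit genes on the 3 arrays, both after background subtraction and on log axes. The dotted line marks a signal of 30000; the YPD arrays form a flat band above it, with 69 and 70 genes over this limit by intensity before background subtraction.

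The small-subunit genes gave similar values. The median of 56 RPS genes was -2.43 in SPM, and their median changes were 3.94 and 4.53, with 52 of 56 at least 1.5-fold higher at each time. Among 24 RPS pairs 10 and 12 were apart in the change at 20 and 40 minutes. The 33 mitochondrial large-subunit genes (MRPL), whose products build the ribosome of another compartment, had median changes of -0.21 and -0.40, with 5 and 4 of them at least 1.5-fold higher and 10 and 11 lower, beside 26.2% and 26.9% of all genes higher and 38.9% and 42.1% lower.

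Genes that act on large-subunit proteins were followed through short lists. Dedicated chaperones hold single ribosomal proteins from their synthesis until assembly. All 7 were at least 1.5-fold higher at both times, beside 22.7% of all genes, with medians of 3.26 and 3.04. RRB1, the chaperone of Rpl3, changed by 4.19 and 4.10 and PUF6 by 3.33 and 3.13, whereas LOC1, which acts with PUF6 on Rpl43, changed by 1.07 and 1.10 and ACL4, the chaperone of Rpl4, by 2.87 and 2.55. In SPM the median of the 7 chaperone genes was -0.13, and 2 of 7 were at least 1.5-fold below the reference, beside 28.6% of all genes. All 11 measured genes for late assembly and export were higher at both times, beside the same 22.7% of all genes. They ran from ALB1 (4.64 and 4.77) and ARX1 (3.65 and 3.44) to SDO1 (1.37 and 0.79) and MEX67 (1.17 and 0.60). Of 3 assembly factors that resemble ribosomal proteins, MRT4, which holds the site of RPP0, changed by 5.97 and 5.93 and RLP7 by 4.66 and 4.47, but RLP24, which precedes RPL24, by 0.11 and 0.17.

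Among the methyltransferases of large-subunit proteins, HPM1, which modifies Rpl3, changed by 2.72 and 3.13 and RKM3 by 2.29 and 2.25, whereas RKM5 changed by -0.78 and -1.14 and RKM1 by -0.73 and -0.55. Of 6 measured, 3 were at least 1.5-fold higher at each time, and 2 and 1 lower, again beside 26.2% and 26.9% of all genes higher and 38.9% and 42.1% lower. The 9 regulators of ribosomal protein genes had medians of 0.50 and 0.30, with 4 and 3 higher and 2 lower at each time, which stand beside the same shares of all genes. IFH1, a coactivator at these promoters, changed by 3.21 and 2.99, and SFP1, an activator that responds to nutrients, by 1.35 and 1.72. CRF1, a corepressor that competes with IFH1 for FHL1, changed by -0.81 and -1.28, and RAP1, which binds most of these promoters, by -0.71 and -0.75. FHL1 itself changed by 0.50 and 0.48, below the 1.5-fold limit.

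**Figure D5:**
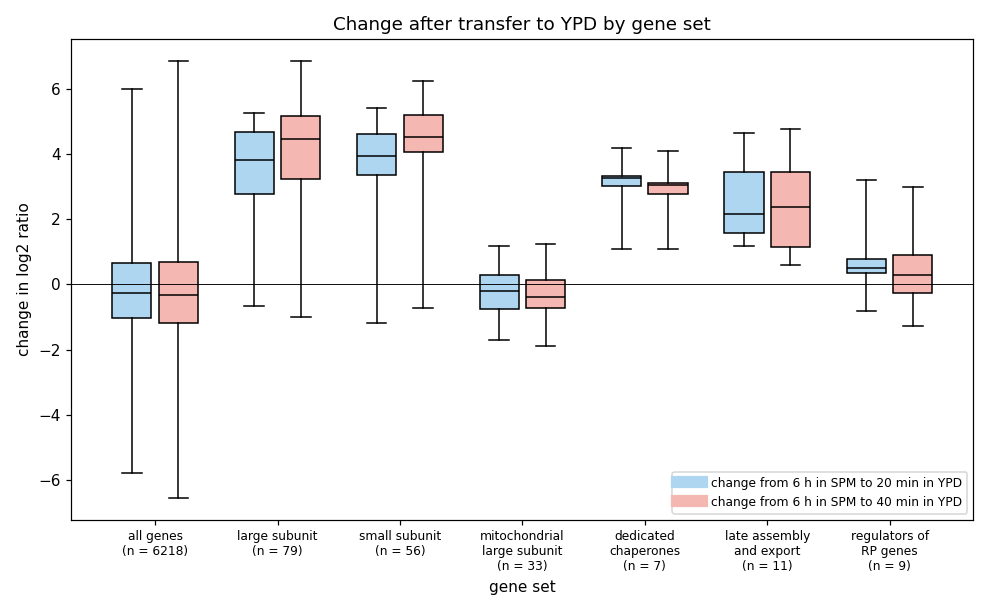
Change of the log2 ratio from SPM to 20 minutes (blue) and 40 minutes (red) in YPD (y axis) by gene set (x axis). Boxes span the quartiles with the median as a line, whiskers reach the lowest and highest gene; the large-subunit medians of 3.80 and 4.45 lie near those of the small subunit (3.94 and 4.53) and above those of all genes (-0.25 and -0.32).

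With 1 array per time point no test could be made, and the SDs hold no variation between cultures, labelings or slides. No Δsum1 cells that stayed in SPM over the same 20 or 40 minutes were analysed here, so the change of medium, the time and the slide cannot be told apart. The reference was wild type, grown in YPA and in Cy3 on every array. The parts of genotype, medium and dye in the ratios to the reference therefore cannot be told apart either.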

How the data were processed

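The deposited scanner files give, per the file headers, an intensity and a local background for each spot and channel, quantified by the authors with QuantArray. The authors also deposited processed log2 ratios, for which they subtracted background, applied a floor, centred each array on its median, left out bad spots and averaged duplicates. These served as an alternative and for recovering the floors, since with the buffer spot means the deposited values were not obtained. Values here equal the deposited ones within 0.001, after removal of a constant per array, for 97.8% to 98.3% of genes compared. The scanner software's signal-to-noise mark was used only in an alternative.

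Background was subtracted, signals under the floors (Cy3 690, 574 and 455; Cy5 656, 397 and 268) were set to them, the median log2 ratio of gene spots was subtracted and 2 spots were averaged. The SD between spots gives the precision, and the number of arrays limits it. Array ORFs were matched to the R64 annotation for 5724 of 6218 genes, 2 large-subunit genes (RPL22B and RPL41B) through the current ORF in the spot name. No promoter, intron or protein comparison was made here. No test was run, because no group has over 1 array. The scripts were tested on simulated data (Python 3.11.15, R 4.3.3, limma 3.58.1).

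Members and lists were chosen with earlier results of these data known. Values per array are given for the stalk and 5S RNP genes, the 4 pairs with the largest and the 2 with the smallest difference in mean change, the 4 genes with the largest and the 4 with the smallest mean change, and genes lower in YPD. For the lists, the 2 highest and the 2 lowest by mean change are named. Other genes were named after their values were seen. The alternatives were 14 settings of the values and 2 of the fold limit.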

Additional observations from a re-analysis of the deposited data

How the results depend on the processing

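The 16 alternatives left the direction of every median of the large-subunit genes as it was, and RPL4A was the only named gene past the 1.5-fold limit whose change turned, at 40 minutes, to -0.67 after loess, -0.66 after normexp with loess and -0.05 with the buffer mean as floor. Loess gave medians of 1.10 and 1.48 for the ratios at 20 and 40 minutes and of 3.23 and 3.50 for the changes, with 2 genes lower at 40 minutes; normexp with loess gave 1.11, 1.49, 3.30 and 3.57, also with 2 lower. With the buffer mean as floor the medians were -2.03, 1.12 and 1.72 for the ratios and 3.22 and 3.78 for the changes, with 2 genes lower at 40 minutes. From Cy5 alone, and with a 2-fold limit, 0 genes were lower at 20 minutes, and at 1.3-fold 2 were at 40 minutes. At 2-fold 10 pairs differed in SPM in place of 16. Without Cy5 spots above 30000, 10 genes kept a change at 20 minutes (median 2.17, 7 higher, 0 lower, 1 pair that differed) and 9 at 40 minutes (median 1.90, 7 higher, 0 pairs that differed); fewer genes were left by construction. For single genes and pairs 652 of 862 values moved by less than the spot SD, and 207 moved by more, 163 toward 0; loess, with or without normexp, and the buffer floor gave 153 of these. The cause of the other differences was not tested. No paired analysis was possible because each time point has 1 array.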
